A study of Mus musculus with 11 samples.

Results

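The 35 genes described here, of 24064 measured in the scatter-gated libraries, are the 20 cytosolic tRNA synthetase genes and a group of 15 made of Atf4 and genes for amino acid synthesis and its control. They were picked by name, with no measured value in the rule, and each was read from its transcript of highest mean level across the 7 gated libraries. All 35 were found in the gated and in the unfractionated libraries.

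The RNA came from haematopoietic stem cells (HSCs), the source of all blood lineages, of wild-type C57BL/6 mouse livers at postnatal day 0. Cells were sorted as lineage-negative, Sca1-positive, cKit-positive, CD150-positive and CD48-negative, and 100 to 200 cells went into each of the 11 libraries, made by Smart-seq2, a full-length cDNA method for small inputs. FSC-A High HSCs (4 libraries) and FSC-A Low HSCs (3 libraries) were separated by forward scatter area, a flow cytometry reading commonly taken as a measure of cell size. A further 4 libraries, labelled WT, have no scatter gate in their labels and are called unfractionated. No label ties the replicates to different animals; the p-values therefore reflect the spread among these libraries, part or all of which may be technical.

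A tRNA synthetase joins an amino acid to its matching tRNA and so supplies the ribosome with building blocks. When amino acids run short or protein folding fails, kinases phosphorylate the translation factor eIF2, general translation drops, and translation of the Atf4 mRNA goes up. ATF4 is a transcription factor that is known to activate genes for amino acid synthesis, transport and tRNA charging, so the level of its mRNA does not measure its protein or its activity.

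Depth was about 65.9 M to 85.2 M reads per FSC-A High library and 69.6 M to 98.6 M reads per FSC-A Low library. It was approximated by taking the most frequent of the lowest products of value and transcript length as 1 read. Rank correlations (Spearman rho over genes) were 0.938 to 0.954 among FSC-A High libraries, 0.92 to 0.927 among FSC-A Low libraries, and pairs from different gates had 0.862 to 0.890. All 12 genes of a G2/M list passed the test as higher in FSC-A High, beside 15.6% of all genes tested. Their summed level was 1953 to 2151 RPKM in FSC-A High libraries and 81.6 to 177 RPKM in FSC-A Low libraries. RPKM are reads scaled for library depth and transcript length. A gene was tested if it reached 1 RPKM in 3 or more gated libraries. Of the G2/M genes, Mki67 (0.378, 1.22 and 0.669 RPKM in FSC-A Low) and Bub1 (2.25, 0.571 and 1.2 RPKM) met this only through FSC-A High. The calls of Mki67 and Bub1 therefore follow in part from the filter. Of 10 HSC markers, 7 were called lower, among them Kit, Hlf, Mecom, Meis1, Gata2 and Ptprc, beside 11.7% of all genes tested. The 10, all detected, summed to 296 to 372 RPKM in FSC-A High and 551 to 692 RPKM in FSC-A Low. Ly6a (log2 difference 0.92, limma adjusted p = 0.0518) and Procr (0.35, 0.261) had higher means in FSC-A High and were not called. Slamf1 was not called either (-0.49, limma adjusted p = 0.344). Hepatocyte markers summed to 59.6 to 75.7 RPKM in FSC-A High and 54.4 to 78.1 RPKM in FSC-A Low. Most of this was Trf, with means of 48.1 RPKM in FSC-A High and 50.8 RPKM in FSC-A Low, followed by Apoa1 (11 and 7.33 RPKM). Alb ranged from 0.201 to 1.56 RPKM over the gated libraries and Ttr from 0.0944 to 1.08 RPKM. Of the 8 hepatocyte markers, the 5 that passed the filter on low values were tested and none was called. All 6 lymphoid markers stayed under 1 RPKM in every gated library. Myeloid markers summed to 279 to 406 RPKM in FSC-A High and 261 to 264 RPKM in FSC-A Low, and erythroid markers to 110.1 to 237 RPKM in FSC-A High and 69.0 to 102 RPKM in FSC-A Low. Each of these lists has 8 markers. Of the 3 myeloid markers tested Lyz2 was called higher, and of the 2 erythroid ones Hbb-bt, beside 15.6% of all genes tested. Ctsg, S100a8, S100a9, Csf1r, Hbb-bs, Hba-a1, Hba-a2 and Alas2 stayed under 1 RPKM. The Lyz2 call was lost without any single library other than FSC-A High 1 (adjusted p 0.0641 to 0.0876), that of Hlf without FSC-A High 1, 2 or 3 or FSC-A Low 1 or 2 (0.0765 to 0.127), and that of Meis1 without FSC-A High 2 or 3 or FSC-A Low 2 or 3 (0.0527 to 0.0599). After removal of a trend over transcript length and GC content from each library, neither Lyz2 (log2 difference 0.02, adjusted p = 0.928) nor Hbb-bt (0.34, adjusted p = 0.386) was called. In that fit 4 of the 10 HSC markers were called lower, beside 853 of all 10478 genes called lower and 17.4% called in either direction. Megakaryocyte markers summed to 72.3 to 105 RPKM in FSC-A High and 55.6 to 68.3 RPKM in FSC-A Low. Of these 6, 5 were tested and none was called. Endothelial markers summed to 5.89 to 25.4 RPKM in FSC-A High and 17.4 to 25.4 RPKM in FSC-A Low. Of these 6, 2 were tested and Pecam1 was called lower, beside 11.7% of all genes tested. The part of the cell cycle or of other cells in the differences given here was not tested, and in bulk samples fewer cells of a type and less RNA per cell cannot be told apart.

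ATF4 binds, with a C/EBP partner, DNA that holds part of the recognition sequence of each. The letters TGATGNAA, one way to write that element, were searched on both strands in the 250 bases before the annotated start of each gene in RefSeq's promoter sequences (GRCm38.p6). Of 27025 genes with such a sequence, 3.91% held the letters. A promoter sequence was at hand for 27 of the 35 genes, and 7 of them held the letters: 3 of 13 synthetases and 4 of 14 genes of the Atf4 group. The windows of 6 are shown so that the DNA these genes carry can be read beside their levels; capitals mark the matched letters, and each is written on the strand on which it reads TGATGNAA. A match is a description of the sequence and not a bound site.

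Gars: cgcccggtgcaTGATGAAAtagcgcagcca
Tars: aaccagcTGATGCAAcgggactcctg
Asns: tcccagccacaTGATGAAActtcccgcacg
Chac1: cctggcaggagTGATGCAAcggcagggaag
Got1: ggaggcttgtaTGATGCAAccaatgcaatg
Pycr1: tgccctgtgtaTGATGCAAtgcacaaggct

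The window of Gars lies at chr6:55037960-55037989 and that of Tars at chr15:11399659-11399684, both shown on the strand opposite to the gene. The window of Asns lies at chr6:7693214-7693243 and that of Pycr1 at chr11:120643833-120643862, both on the gene's own strand. The windows of Chac1, at chr2:119351038-119351067, and of Got1, at chr19:43524689-43524718, are shown on the opposite strand. The letters ended 8 bases before the start in Tars, 16 in Asns, 23 in Gars, 95 in Got1, 96 in Pycr1 and 186 in Chac1.

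The first comparison asked whether the synthetases differed between HSCs of high and low forward scatter. As a group they did not move one way. Of the 20, all of which passed the filter on low values, Rars was called higher in FSC-A High, Lars and Iars were called lower, and 17 were not called. The test was limma on log2(RPKM + 1), with p-values adjusted by the Benjamini-Hochberg method over all 10619 genes tested; a gene is called at an adjusted p under 0.05. Of all genes tested, 27.3% were called, 15.6% as higher and 11.7% as lower in FSC-A High, so 3 of 20 is no more than this background. The median log2 difference (FSC-A High minus FSC-A Low) of the synthetases was 0.02, beside -0.04 over all genes tested, with 10 members above 0 and 10 below. Of the 20, 17 differed by less than 1.5-fold, as did 58.1% of all genes tested. The 20 synthetases summed to 887, 924, 888 and 1004 RPKM in the FSC-A High libraries and to 967, 882 and 825 RPKM in the FSC-A Low libraries. These sums overlapped, at 926 ± 55.1 RPKM in FSC-A High (SD, n = 4) and 891 ± 71.3 RPKM in FSC-A Low (SD, n = 3). As shares of each library's total of gene RPKM, which was larger in FSC-A High, they did not overlap, at 0.206% to 0.240% in FSC-A High and 0.241% to 0.290% in FSC-A Low.

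Rars, which charges tRNA with arginine (chr11:35808381-35834528, mm10), had 29.2, 35.1, 35.4 and 35.9 RPKM in FSC-A High libraries, against 19.4, 21.2 and 14.1 RPKM in FSC-A Low libraries. Every FSC-A High library lay above every FSC-A Low library, and the lowest FSC-A High value stood apart from the other 3. Its log2 difference was 0.87 (SE 0.21, limma adjusted p = 0.00747). It stayed called under each alternative run, with adjusted p-values from 0.00475 to 0.0494.

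Lars, the leucine enzyme, which in mammals is also known as a sensor that passes leucine levels to the mTORC1 kinase (chr18:42202298-42262237), had 8.28, 12.4, 8.83 and 17.4 RPKM in FSC-A High, against 32.5, 20.5 and 25.1 RPKM in FSC-A Low. The groups did not overlap, and the spread within FSC-A High was wide. Its log2 difference came to -1.12 (SE 0.28, limma adjusted p = 0.0107). The adjusted p was 0.0506 without FSC-A Low 1, with a log2 difference of -0.95. It was 0.0542, with a log2 difference of -0.84, once a trend over transcript length and GC content had been removed from each library.

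Iars, the isoleucine enzyme (chr13:49682130-49734267), had 20.2, 16.7, 13.8 and 20.2 RPKM in FSC-A High, against 29.8, 29.5 and 23.9 RPKM in FSC-A Low. Here too the groups were apart, by a smaller distance. The log2 difference was -0.63 (SE 0.22, limma adjusted p = 0.0483), and the call rested on single libraries. Its adjusted p was 0.101 without FSC-A High 2, 0.133 without FSC-A High 3, 0.132 without FSC-A Low 1, 0.120 without FSC-A Low 2 and 0.0512 without FSC-A Low 3. After removal of the length and GC trend the log2 difference was -0.29 (adjusted p = 0.384).

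Among synthetases that were not called, 3 had libraries that did not overlap between the gates. Dars, the aspartate enzyme, had 94.8, 72.5, 70.7 and 91.0 RPKM in FSC-A High, against 59.9, 65.3 and 63.5 RPKM in FSC-A Low (log2 difference 0.37, SE 0.16, limma adjusted p = 0.110). Qars, the glutamine enzyme, had 15.5, 21.6, 17.8 and 18.6 RPKM in FSC-A High, against 14.0, 14.4 and 13.1 RPKM in FSC-A Low (log2 difference 0.38, SE 0.22, limma adjusted p = 0.219). Both had their higher values in FSC-A High, by margins that limma did not separate from the spread. Tars, the threonine enzyme, ran the other way, with 47.5, 43.2, 40.4 and 52.7 RPKM in FSC-A High, against 55.6, 58.3 and 54.5 RPKM in FSC-A Low (log2 difference -0.29, SE 0.16, limma adjusted p = 0.214). In all, 3 synthetases had non-overlapping libraries with the higher values in FSC-A High and 3 with the lower, where 34.9% of all genes tested did not overlap.

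Kars, the lysine enzyme, had the highest mean of the synthetases, with 80.8, 111, 104 and 121 RPKM in FSC-A High, against 108, 95.2 and 65.1 RPKM in FSC-A Low. The gates overlapped (log2 difference 0.23, SE 0.20, limma adjusted p = 0.408). Farsa and Farsb encode both subunits of the phenylalanine enzyme. Farsa had a mean of 97.8 RPKM in FSC-A High and 82.3 RPKM in FSC-A Low, and Farsb 41.4 RPKM in FSC-A High and 31.7 RPKM in FSC-A Low. Their log2 differences were 0.26 for Farsa and 0.38 for Farsb, neither of them called. Gars, for glycine, was close between the gates, with means of 96.4 RPKM in FSC-A High and 90.3 RPKM in FSC-A Low. The enzymes for asparagine (Nars, log2 difference 0.05), histidine (Hars, -0.01), methionine (Mars, -0.05), serine (Sars, -0.08), tryptophan (Wars, -0.09), and glutamate with proline (Eprs, -0.03) each differed by less than 0.1. Yars for tyrosine (0.17) and Cars for cysteine (0.27) lay above 0. Vars for valine (-0.29) and Aars for alanine (-0.41) lay below. For Vars the 95% interval of the log2 difference was -0.73 to 0.15 and for Aars -0.90 to 0.09, so a moderate difference in either could have gone uncalled.

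**Figure D1:**
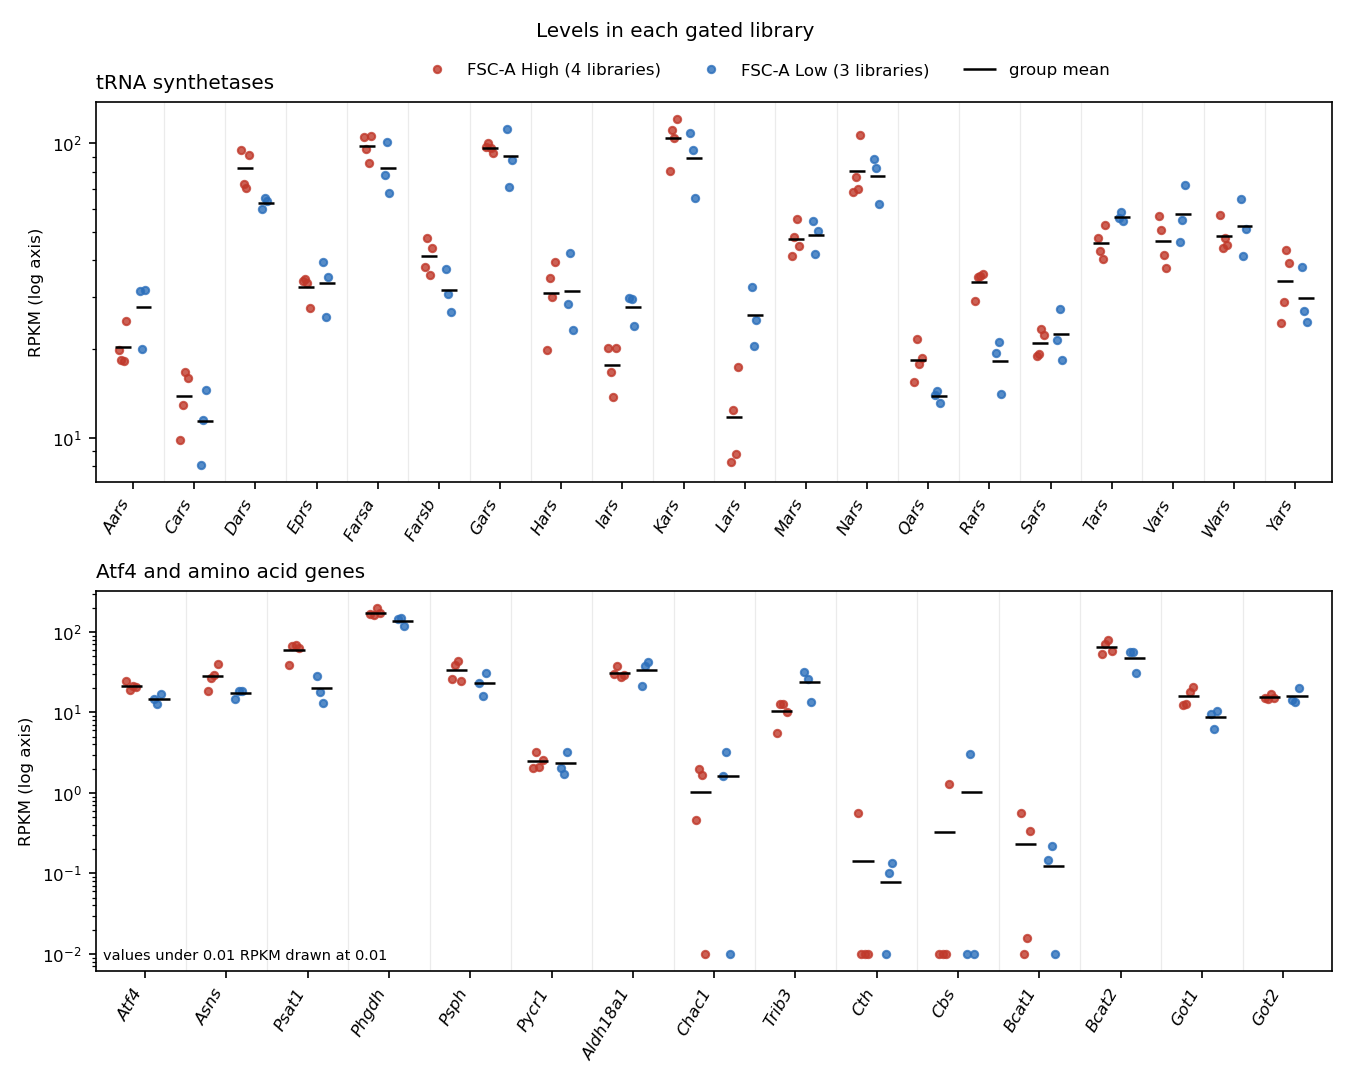
RPKM (log axis) of each tRNA synthetase (top) and each gene of the Atf4 group (bottom) in the 4 FSC-A High libraries (red) and the 3 FSC-A Low libraries (blue), with bars at the group means. Rars and Psat1 sit higher in every FSC-A High library and Lars, Iars and Trib3 lower, while most synthetases overlap; values under 0.01 RPKM are drawn at 0.01.

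**Figure D2:**
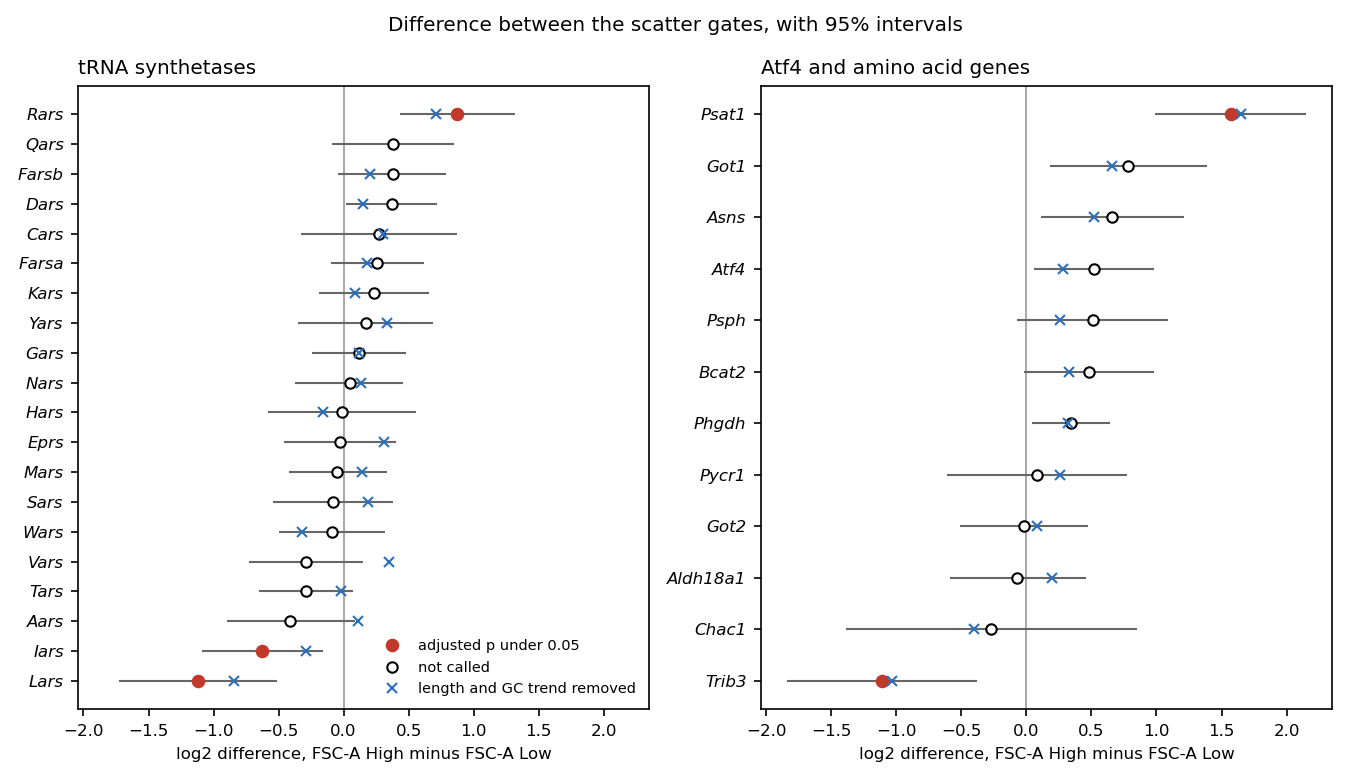
Log2 difference (FSC-A High minus FSC-A Low) of each tested gene with its 95% interval, for synthetases (left) and the Atf4 group (right); filled points have an adjusted p under 0.05 and crosses give the difference once a length and GC trend was removed. The synthetases straddle 0 around a median of 0.02, and the Atf4 group has a median of 0.41.

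Synthetases come in 2 structural classes, and a part of them sits in a multisynthetase complex. The 3 called genes, Rars, Lars and Iars, belong to class I and to the complex. Of 10 class I genes 1 was called higher and 2 lower (median log2 difference -0.04), and of 10 class II genes none was called (median 0.08). Eprs, which serves both glutamate and proline, was counted in class I only. Among 8 synthetases of the complex 1 was called higher and 2 lower (median 0.10), and among 12 outside it none was called (median 0.02). Over all genes tested 27.3% were called. These subgroups are small and the difference between them was not tested.

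The genes of the 3 scaffold proteins of that complex, which carry no tRNA-charging activity of their own, were all called higher in FSC-A High. Among all genes tested 15.6% were called higher. Aimp2 averaged 95.6 ± 15.7 RPKM in FSC-A High (SD, n = 4) and 44.1 ± 8.59 RPKM in FSC-A Low (SD, n = 3), a log2 difference of 1.10 (limma adjusted p = 0.000946). Aimp1 averaged 57.2 ± 12.9 RPKM in FSC-A High and 30.7 ± 2.28 RPKM in FSC-A Low (log2 difference 0.85, limma adjusted p = 0.00834). Eef1e1, also called AIMP3, averaged 54.9 ± 5.92 RPKM in FSC-A High and 28.7 ± 2.75 RPKM in FSC-A Low (log2 difference 0.91, limma adjusted p = 0.00219). After removal of the length and GC trend Aimp2 stayed called at 0.52 (adjusted p = 0.0454) and Eef1e1 at 0.86 (adjusted p = 0.00468), and Aimp1 did not, at 0.30 (adjusted p = 0.358). With library totals made equal, Aimp2 (0.79, limma adjusted p = 0.00585) and Eef1e1 (0.6, 0.0178) were called and Aimp1 was not (0.54, 0.067).

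Most synthetases of mitochondria have separate genes. Of 17 such genes, 2 were called higher, 2 lower and 13 not at all (median log2 difference 0.01), near the 27.3% called over all genes tested. Mars2 averaged 11.3 ± 0.83 RPKM in FSC-A High and 4.19 ± 1.71 RPKM in FSC-A Low. It rose by 1.30 on the log2 scale (limma adjusted p = 0.00586). Iars2 averaged 3.87 ± 1.52 RPKM in FSC-A High and 18.3 ± 8.23 RPKM in FSC-A Low (log2 difference -1.95, limma adjusted p = 0.00154). Lars2 averaged 7.13 ± 1.13 RPKM in FSC-A High and 14.1 ± 3.07 RPKM in FSC-A Low (log2 difference -0.88, limma adjusted p = 0.0259). The Lars2 call was lost without FSC-A High 3 (adjusted p = 0.0727), FSC-A Low 1 (0.105) or FSC-A Low 3 (0.0575), and after removal of the length and GC trend (0.141). Iars and Lars and their mitochondrial counterparts thus had their lower values in FSC-A High, a pairing that was picked out after the values were seen.

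The second comparison set Atf4 and its amino acid genes between the same gates. Of the 15, the filter on low values was passed by 12; of these Psat1 was called higher in FSC-A High, Trib3 was called lower, and 10 were not called, beside 27.3% called among all genes tested. The median log2 difference of the 12 was 0.41, with 8 above 0 and 4 below, and 8 differed by less than 1.5-fold. The 15 genes summed to 393, 468, 521 and 457 RPKM in the FSC-A High libraries and to 362, 362 and 319 RPKM in the FSC-A Low libraries. The FSC-A High sums, 459.8 ± 52.2 RPKM (SD, n = 4), were all above the FSC-A Low sums, 348 ± 24.6 RPKM (SD, n = 3). As shares of each library's total of gene RPKM the sums overlapped, at 0.0962% to 0.121% in FSC-A High and 0.0933% to 0.108% in FSC-A Low. Phgdh made up the largest share of each sum.

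Atf4 itself (chr15:80255184-80257545) had 24.9, 19.0, 21.6 and 20.5 RPKM in FSC-A High, against 14.5, 12.8 and 16.8 RPKM in FSC-A Low. The groups did not overlap, and the FSC-A High libraries lay close together. The log2 difference was 0.52 (SE 0.21, 95% interval 0.06 to 0.98) and was not called (limma adjusted p = 0.0903). It was 0.28 after removal of the length and GC trend (adjusted p = 0.410), and its adjusted p stayed between 0.0558 and 0.469 in every alternative run.

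Serine is made from a glycolytic intermediate by 3 enzymes in turn. Phgdh, the first and the most abundant gene of all 35, had 165, 163, 198 and 171 RPKM in FSC-A High, against 144, 149 and 119.8 RPKM in FSC-A Low. All FSC-A High values were higher, by a small margin (log2 difference 0.34, SE 0.14, limma adjusted p = 0.0875). Psat1, the aminotransferase of the middle step (chr19:15905123-15925059), had 39.3, 66.0, 68.1 and 63.5 RPKM in FSC-A High, against 28.7, 17.7 and 13.1 RPKM in FSC-A Low. The groups were far apart, with the nearest values in FSC-A High 1 and FSC-A Low 1. For Psat1 the log2 difference was 1.57 (SE 0.27, limma adjusted p = 0.00104), a 2.97-fold higher level on the log2(RPKM + 1) scale, and was called in every alternative run (adjusted p 0.000331 to 0.0203). It was 1.65 after removal of the length and GC trend. Psph, the phosphatase that ends the pathway, averaged 33.4 ± 9.55 RPKM in FSC-A High (SD, n = 4) and 23.2 ± 7.19 RPKM in FSC-A Low (SD, n = 3), with overlapping libraries (log2 difference 0.51, limma adjusted p = 0.178).

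Asns, which makes asparagine and is a textbook ATF4 target, had 18.4, 26.9, 29.5 and 40.1 RPKM in FSC-A High, against 14.6, 18.5 and 18.7 RPKM in FSC-A Low. The gates overlapped only through FSC-A High 1. The log2 difference of 0.66 (SE 0.26) was not called with all libraries (limma adjusted p = 0.0717), and was 0.85 and called without FSC-A High 1 (adjusted p = 0.0187). Its adjusted p was not under 0.05 in any other alternative run, reaching 0.173 after removal of the length and GC trend (log2 difference 0.52) and 0.292 with library totals made equal (0.36). Its promoter window, shown above, was one of those with the letters on the gene's own strand.

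In proline synthesis neither gene was called. Aldh18a1, the first enzyme of the route from glutamate, averaged 31.1 ± 4.69 RPKM in FSC-A High and 33.7 ± 11.1 RPKM in FSC-A Low (log2 difference -0.07, limma adjusted p = 0.867). Pycr1, a mitochondrial enzyme of the last step, was low throughout, at 2.49 ± 0.538 RPKM in FSC-A High and 2.34 ± 0.782 RPKM in FSC-A Low (log2 difference 0.08, limma adjusted p = 0.883).

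The aminotransferases move amino groups between amino acids and keto acids. Got1, the cytosolic aspartate aminotransferase, had 12.3, 12.7, 18 and 20.5 RPKM in FSC-A High, against 9.69, 6.20 and 10.5 RPKM in FSC-A Low. The groups did not overlap, and the log2 difference of 0.78 (SE 0.28) was not called (limma adjusted p = 0.0534). Over the alternatives run its adjusted p was 0.0408 to 0.204; it was called in 4 of them, 1 of which left out FSC-A High 1 (0.0451), and was farthest from a call with library totals made equal (log2 difference 0.50). Got2, its mitochondrial counterpart, averaged 15.4 ± 1.11 RPKM in FSC-A High and 15.8 ± 3.52 RPKM in FSC-A Low (log2 difference -0.02, 95% interval -0.51 to 0.47). Bcat2, the mitochondrial branched-chain aminotransferase, averaged 65.6 ± 12.3 RPKM in FSC-A High and 47.8 ± 14.5 RPKM in FSC-A Low (log2 difference 0.48, limma adjusted p = 0.141). Bcat1, the cytosolic form, did not pass the filter, with 0.229 ± 0.271 RPKM in FSC-A High and 0.122 ± 0.113 RPKM in FSC-A Low.

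Cbs and Cth, which turn homocysteine into cysteine, did not pass the filter either. Cbs reached 1.30 RPKM in FSC-A High 4 and 3.07 RPKM in FSC-A Low 2 and was under 0.01 RPKM in the other 5 libraries. Cth ranged between 0 and 0.567 RPKM in FSC-A High and between 0 and 0.136 RPKM in FSC-A Low.

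Trib3, a pseudokinase that ATF4 induces and that feeds back on it (chr2:152337425-152344060), had 5.58, 12.6, 12.9 and 10.1 RPKM in FSC-A High, against 31.4, 26.1 and 13.6 RPKM in FSC-A Low. The groups did not overlap, though FSC-A Low 3 was just above the highest FSC-A High library. The log2 difference was -1.11 (SE 0.34, limma adjusted p = 0.0268). The call was lost without FSC-A High 1 (adjusted p = 0.0568), FSC-A Low 1 (0.111) or FSC-A Low 2 (0.0791). Trib3 had a log2 difference of -1.03 after removal of the length and GC trend (adjusted p = 0.0573). Chac1, a glutathione-degrading enzyme that ATF4 also induces, was low and uneven, with 0 to 2.01 RPKM in FSC-A High and 0 to 3.27 RPKM in FSC-A Low (log2 difference -0.27, limma adjusted p = 0.737).

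Of the members with a promoter sequence, the 7 with a match to the letters had a median log2 difference of 0.08 with none called, and the 18 tested members whose promoter sequence had no match had a median of 0.25 with 3 called. Neither count reached the 27.3% called over all genes tested, whose median was -0.04, and the difference by match was not tested.

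Transcript length moved with the differences between the gates. Over 10478 genes tested with a known length the log2 difference had a Spearman rho of -0.42 with length, and over 19 synthetases rho was -0.65; Qars had no length for its transcript. Split at 3000 nt, a limit chosen after seeing the data, the 12 shorter synthetases had a median log2 difference of 0.20, with 9 above 0, and the 7 longer ones a median of -0.29, with none above 0. After a spline over length and GC content had been removed within each library, rho over the 19 was 0.06, the shorter had a median of 0.15 and the longer of 0.11. In that fit 17.4% of 10478 genes were called, Rars stayed called (log2 difference 0.71, adjusted p = 0.0241), and neither Lars nor Iars was called. The synthetases then had a median of 0.14 with 14 of 19 above 0, and the Atf4 group a median of 0.27 with 10 of 12 above 0. Lars and Iars are among the 7 longer synthetases. The cause of the trend was not tested.

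**Figure D3:**
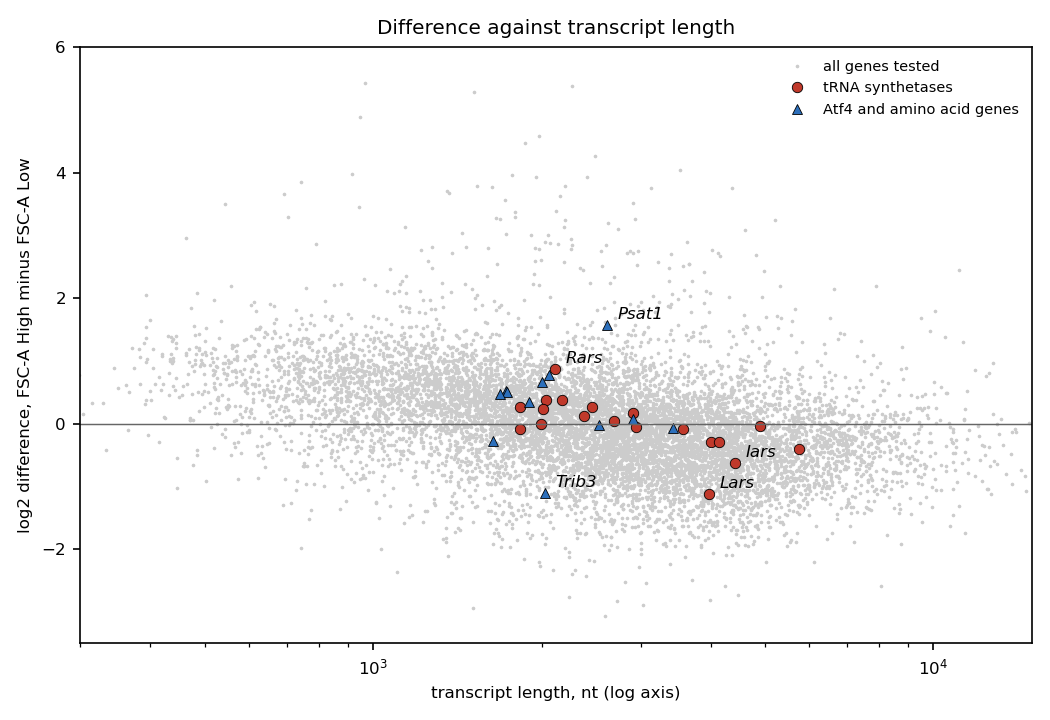
Log2 difference (FSC-A High minus FSC-A Low) against transcript length in nt (log axis) for all genes tested (grey), synthetases (red circles) and the Atf4 group (blue triangles). The differences fall with length, with a Spearman rho of -0.42 over all genes and -0.65 over 19 synthetases; Lars and Iars are among the longer synthetases.

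Scaling set the sign of the smaller differences. With library totals of gene RPKM made equal, the median over all genes was -0.31 and that of the synthetases -0.29, so relative to all genes they kept their place. Under that scaling 1 synthetase was called higher (Rars) and 5 lower (Lars, Iars, Tars, Aars and Vars), beside 9.23% of all genes called higher and 21.5% called lower. The Atf4 group had a median of 0.10 under it, with the same single call each way, Psat1 and Trib3.

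Genes around the Atf4 pathway were grouped by role. The kinases and factors that control eIF2 gave 2 genes called higher and 3 called lower of 16 tested (median log2 difference -0.27), which is near the 27.3% called over all genes tested. Eif2ak3, which encodes PERK, the kinase of endoplasmic reticulum stress, averaged 0.928 ± 0.407 RPKM in FSC-A High and 4.79 ± 1.86 RPKM in FSC-A Low (log2 difference -1.56, limma adjusted p = 0.00580). It was also called after removal of the length and GC trend (log2 difference -1.23, adjusted p = 0.0302). Eif2ak4, which encodes GCN2, the kinase that senses uncharged tRNA, averaged 1.65 ± 0.550 RPKM in FSC-A High and 5.71 ± 3.12 RPKM in FSC-A Low (log2 difference -1.25, limma adjusted p = 0.0281). Ppp1r15b, a subunit of the phosphatase that reverses eIF2 phosphorylation, averaged 1.79 ± 0.685 RPKM in FSC-A High and 5.37 ± 3.08 RPKM in FSC-A Low (log2 difference -1.12, limma adjusted p = 0.0393). Neither Eif2ak4 (adjusted p = 0.122) nor Ppp1r15b (0.187) was called after removal of the length and GC trend. The Eif2ak4 call was also lost without FSC-A High 2 (0.0688), FSC-A High 3 (0.0726), FSC-A Low 1 (0.120) or FSC-A Low 3 (0.0738). The Ppp1r15b call was lost without FSC-A High 1 (0.0627), FSC-A High 2 (0.0988), FSC-A High 3 (0.0895) or FSC-A Low 1 (0.169).

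Of the subunits of eIF2B, the exchange factor that reloads eIF2, Eif2b4 averaged 54.4 ± 8.99 RPKM in FSC-A High and 26.7 ± 4.17 RPKM in FSC-A Low (log2 difference 0.99, limma adjusted p = 0.00260). It kept its call after removal of the length and GC trend (1.01, adjusted p = 0.00405). Eif2b2 averaged 53.1 ± 13.1 RPKM in FSC-A High and 31.8 ± 8.61 RPKM in FSC-A Low, with overlapping libraries (log2 difference 0.72, limma adjusted p = 0.0476). That call was lost after removal of the length and GC trend (0.205) and with library totals made equal (0.213). It was also lost without FSC-A High 2 (0.123), FSC-A High 3 (0.106), FSC-A High 4 (0.103), FSC-A Low 2 (0.0569) or FSC-A Low 3 (0.185).

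Of 14 other partners and targets of ATF4, 8 passed the filter (median log2 difference -0.28). Beside 11.7% of all genes tested that were called lower, the 8 held 1 such gene and none called higher. This was Cebpb, a C/EBP factor that can pair with ATF4, with 16.9 ± 10.5 RPKM in FSC-A High and 126 ± 40.3 RPKM in FSC-A Low (log2 difference -2.94, limma adjusted p = 0.000109). Ddit3, the CHOP factor of the same stress response, was not called, at 9.41 ± 3.27 RPKM in FSC-A High and 11.1 ± 3.28 RPKM in FSC-A Low (log2 difference -0.25, limma adjusted p = 0.628).

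Of 12 amino acid transporters 10 were tested, and 4 of these were called lower and none higher in FSC-A High (median log2 difference -0.62). Slc7a1 was under 1 RPKM in every FSC-A High library and entered the test through its FSC-A Low values alone, so its call follows in part from the filter. Of the other 9, 3 were called lower, beside 11.7% of all genes tested, and their median log2 difference was -0.55. Slc1a5, a carrier of glutamine and other neutral amino acids, had 116, 112, 132 and 106 RPKM in FSC-A High, against 213, 237 and 227 RPKM in FSC-A Low. The values of each gate were tight and far from the other (log2 difference -0.95, limma adjusted p = 0.00027; -0.69 after removal of the length and GC trend, adjusted p = 0.00301). Slc7a1, a carrier of arginine and lysine, averaged 0.426 ± 0.203 RPKM in FSC-A High and 2.62 ± 0.797 RPKM in FSC-A Low (log2 difference -1.33, limma adjusted p = 0.00840, given the filter above). Slc38a2, a carrier of small neutral amino acids, averaged 11.3 ± 1.24 RPKM in FSC-A High and 19.7 ± 2.92 RPKM in FSC-A Low (log2 difference -0.76, limma adjusted p = 0.0262). Slc38a1, of the same family, averaged 15.5 ± 2.97 RPKM in FSC-A High and 25.9 ± 4.05 RPKM in FSC-A Low (log2 difference -0.72, limma adjusted p = 0.0334). After removal of the length and GC trend Slc1a5 alone of the 4 was called; adjusted p was 0.0606 for Slc7a1, 0.136 for Slc38a2 and 0.366 for Slc38a1. The Slc38a2 call was lost without FSC-A High 3 (0.0755), FSC-A Low 1 (0.0519) or FSC-A Low 2 (0.0975), and the Slc38a1 call without FSC-A High 1 (0.0621), FSC-A High 3 (0.0965), FSC-A Low 1 (0.126) or FSC-A Low 3 (0.0553).

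Serine feeds the one-carbon cycle, in which 2 of 11 tested genes of 12 were called, both higher (median log2 difference 0.08), near the 15.6% of all genes tested that were called higher. Shmt1, which takes the one-carbon unit from serine in the cytosol, averaged 51.1 ± 10.4 RPKM in FSC-A High and 27.6 ± 5.09 RPKM in FSC-A Low (log2 difference 0.86, limma adjusted p = 0.00938). Tyms, which makes thymidylate for DNA, averaged 26.0 ± 2.07 RPKM in FSC-A High and 5.79 ± 2.04 RPKM in FSC-A Low (log2 difference 2.03, limma adjusted p = 0.000131). Of 12 further genes of amino acid synthesis 2 were called, both higher (median log2 difference 0.09), again near that 15.6%. Oat, which makes a proline precursor from ornithine, averaged 81.4 ± 10.5 RPKM in FSC-A High and 55.9 ± 12.0 RPKM in FSC-A Low (log2 difference 0.55, limma adjusted p = 0.0387). Asl, which releases arginine, averaged 45.0 ± 6.28 RPKM in FSC-A High and 29.4 ± 7.46 RPKM in FSC-A Low (log2 difference 0.62, limma adjusted p = 0.0473). The Oat call was lost without FSC-A High 2 (0.0765), FSC-A High 3 (0.0541), FSC-A High 4 (0.0882), FSC-A Low 2 (0.0899) or FSC-A Low 3 (0.149), and the Asl call without FSC-A High 2 (0.115), FSC-A High 3 (0.0768), FSC-A High 4 (0.0997), FSC-A Low 2 (0.187) or FSC-A Low 3 (0.0546). After removal of the length and GC trend Oat was not called (adjusted p = 0.0895). With library totals made equal Shmt1 (log2 difference 0.55, limma adjusted p = 0.0715), Oat (0.24, 0.344) and Asl (0.31, 0.289) were not called. Tyms stayed called under that scaling (1.75, limma adjusted p = 0.000495).

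**Figure D4:**
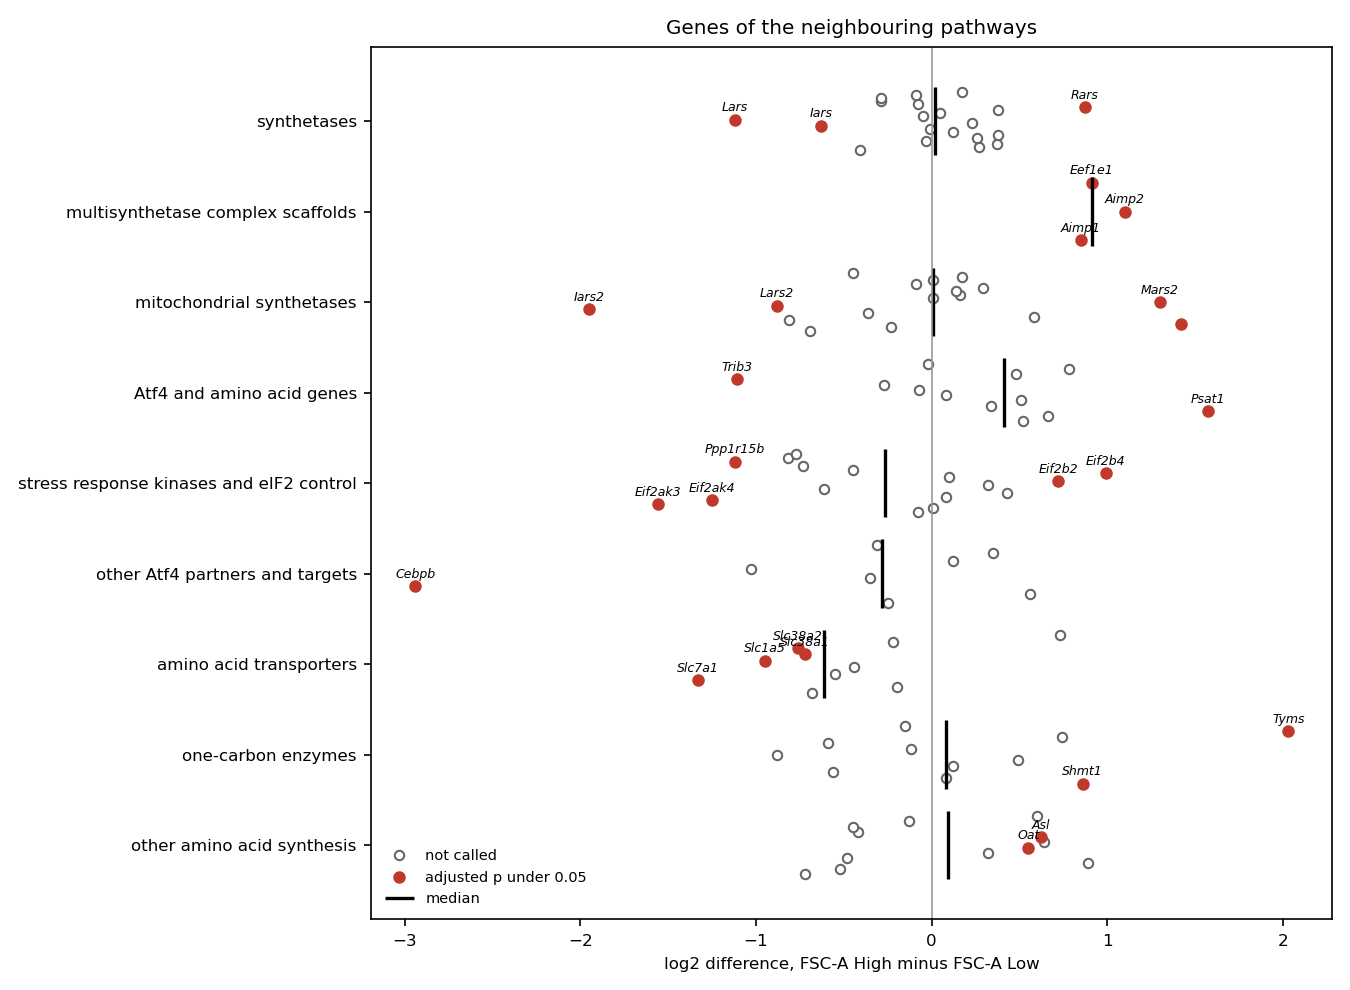
Log2 difference (FSC-A High minus FSC-A Low) of each tested gene in the lists around the synthetases and Atf4; filled points have an adjusted p under 0.05 and are named, with 1 exception, and bars mark list medians. The multisynthetase complex scaffolds (median 0.91) and the amino acid transporters (median -0.62) have their called genes on one side of 0. So do the one-carbon enzymes (2 called), the other amino acid synthesis genes (2) and the other Atf4 partners and targets (1). Among the transporters, Slc7a1 passed the filter through its FSC-A Low values alone.

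The 4 unfractionated libraries form a single group, so their values describe levels only. They held 30889443, 21307178, 27206879 and 29952311 reads, recovered from the deposited values, and levels are given as depth-scaled counts (CPM) and, between genes, as CPM per kilobase of transcript. A single gene, Rn45s, took 15.25% of reads in the fourth library, against 3.06% to 5.26% in the others. The CPM of all other genes are lowered somewhat in the fourth library for that reason. Phgdh was the most abundant, with 572, 441, 389.8 and 411 CPM, and its 239.5 CPM per kb also put it first of the 35, as in the gated libraries. Dars followed with 155 CPM per kb and Kars with 143 CPM per kb. Dars (331, 332, 278 and 404 CPM) and Kars (258, 295, 300.3 and 299 CPM) overlapped, so their order lies within the spread. The synthetases had a median of 52.7 CPM per kb, with Aars lowest at 10.2 CPM per kb, and the Atf4 group a median of 25.9 CPM per kb.

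Atf4 had 65.1, 142, 137 and 152 CPM, number 10 in order at 72.0 CPM per kb, with the first library well below the other 3. Rars, at 139, 174, 185 and 154 CPM, and Lars, at 85.8, 103, 114 and 108 CPM, were steady. Psat1 varied more, at 122, 176, 186 and 101 CPM, and Asns more again, at 39.4, 71.4, 123 and 46.1 CPM. The largest spread among synthetases was in Cars, whose 66.5, 41.5, 20.4 and 8.65 CPM covered a 7.69-fold range, and the smallest in Nars, with a 1.11-fold range. Trib3 had 24.9, 7.70, 27.9 and 54.9 CPM, a 7.13-fold range.

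Chac1 had 1, 3, 76 and 288 reads in the 4 libraries, so that 2 were nearly without it and 1 held most of its reads. Cth had 1 read in the first library and 0 in the others. Bcat1 had 5 reads in the second library and 0 in the others, and Cbs had 3 reads in the second and 17 in the third library. A count of 0 allows up to 3 counts, or 0.0971 to 0.141 CPM in these libraries, which covers counting error only. The order of the 35 levels per kilobase had a Spearman rho of 0.83 with that in the gated libraries, over genes of unlike sample sets and processing. Rars was number 7 of the 35 in the unfractionated libraries and number 19 in the gated ones, and Atf4 number 10 in the unfractionated and number 24 in the gated ones.

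**Figure D5:**
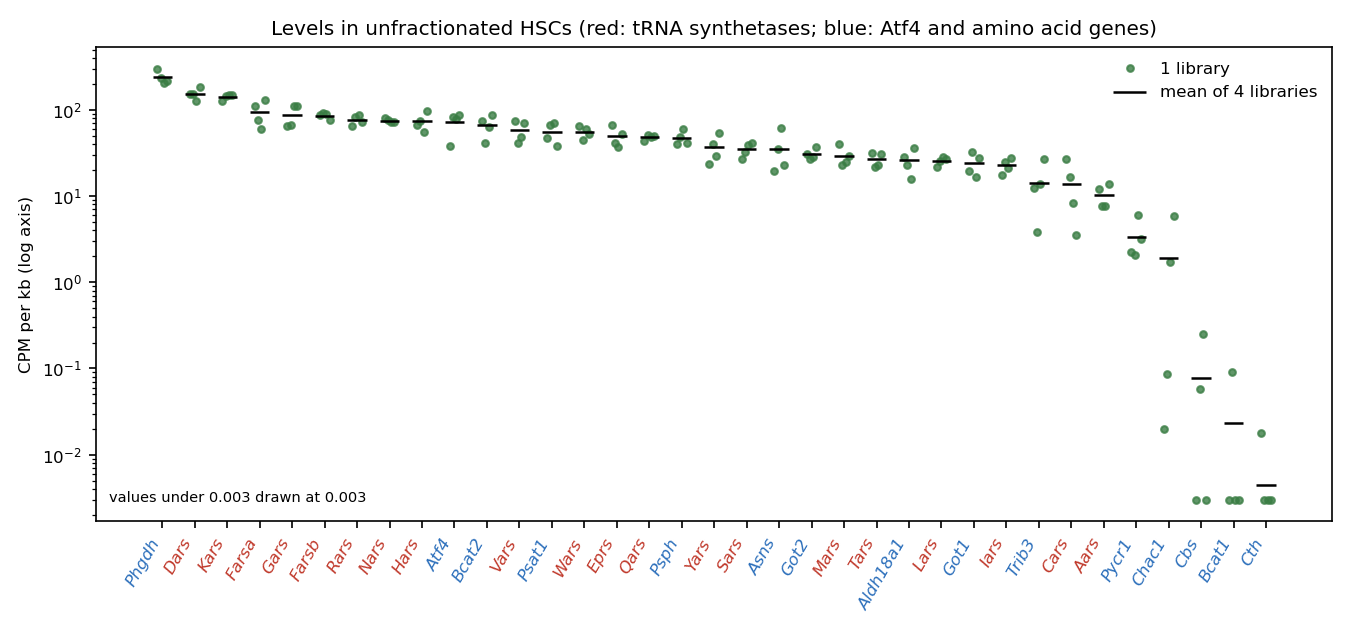
CPM per kb (log axis) of the 35 genes in the 4 unfractionated libraries, in order of their mean (bars), with synthetase names in red and names of the Atf4 group in blue. Phgdh leads at 239.5 CPM per kb, the synthetases fill most of the upper places down to 10.2 CPM per kb, and Cth, Bcat1 and Cbs lie at or near 0.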

How the data were processed

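RNA from sorted HSCs was sequenced after Smart-seq2 (per the labels' protocols). STAR, DESeq2 and mm10 are named in the submitters' processing notes, with no roles or versions. The gated files, as the authors deposited them, give 1 value for each of 33984 RefSeq transcripts; no header names the unit, which was taken from the values as RPKM, scaled by the authors for depth and length (RPKM and FPKM cannot be told apart). The unfractionated files hold a signal per gene that the authors deposited as reads divided by a size factor; 100% of values became whole reads within 0.01 when multiplied back, and were expressed as CPM. They form 1 group, so no count test was run. In these files 27 symbols had become dates.

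Transcripts were named through NCBI's table for GRCm38 by RefSeq identifier (33548) or symbol (308); 128 kept the name in the file. Transcripts of GENCODE M21 gave length and GC content. Genes that reached 1 RPKM in 3 or more gated libraries were tested with limma 3.58.1 in R 4.3.3 (eBayes with trend, group only) on log2(RPKM + 1), Benjamini-Hochberg over all genes, threshold 0.05; fold changes on this scale understate those of low genes. The step was tested on simulated data. All 35 members are named; values in every library are given for Atf4, Asns, called members, members with non-overlapping groups and the most abundant of each group, and up to 6 called genes of each other list are named; results of a few single genes and 1 promoter window are not reported here, while counts and medians include them. Members and lists were chosen with earlier results of these data known. The gated libraries bear replicate numbers with no stated meaning, so no pairing was used in the main fit. Alternatives were 2 other scalings, a pseudocount of 0.5 or 5, a filter at 5 RPKM or none, leaving out each library, a replicate block, the sum over transcripts, and removal of a spline (5 degrees of freedom) over length and GC content or over level. Tables used pandas 2.3.3 and numpy 2.4.6 under Python 3.11.15, and plots matplotlib 3.10.9.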

Additional observations from a re-analysis of the deposited data

Results flagged for a closer look

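In 64 groups of 4 libraries, made of the FSC-A High or the unfractionated values of each gene that passed the filter, 5 held a library far from the other 3, and chance gives about 1 in 20. Psat1 in FSC-A High 1 had 39.3 RPKM, against 63.5 to 68.1 RPKM in the other FSC-A High libraries. Rars in the same library had 29.2 RPKM, against 35.1 to 35.9 RPKM. Eprs in FSC-A High 4 had 27.6 RPKM, against 33.5 to 34.6 RPKM. Got2 in FSC-A High 3 had 17.0 RPKM, against 14.7 to 15.0 RPKM. Kars in the first unfractionated library had 258 CPM, against 295 to 300.3 CPM.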

How the results depend on the processing

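Scaled to library totals, 6 synthetases were called, their median log2 difference was -0.29 and that of the Atf4 group 0.10; all genes gave 980 higher and 2285 lower calls, beside 1657 and 1245. With no filter, 1 gene of the Atf4 group was called and its median was 0.11. With the length and GC trend removed, 1825 genes, 1 synthetase and 1 gene of the Atf4 group were called. With a level trend removed the synthetase median was -0.17. Replicate numbers did not pair the samples (correlations of same-numbered deviations -0.031, 0.059 and 0); with a replicate block, in which FSC-A High 4 has no partner and drops out, 1 gene of the Atf4 group, 2 synthetases and 2431 genes in all were called. Leaving out 1 library gave 2218 to 2805 genes, 1 to 3 synthetases, 1 to 3 genes of the Atf4 group, medians of 0.00 to 0.12 for synthetases and 0.25 to 0.45 for the Atf4 group, and a median level percentile of 90.4 to 91.8 for members in unfractionated libraries.

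Signs turned only in genes that were not called in the main fit. Among them, Aars (-0.71, limma adjusted p = 0.0387) and Vars (-0.6, limma adjusted p = 0.041) were called lower when scaled to totals. Without the length and GC trend the log2 difference was 0.11 for Aars, 0.31 for Eprs, 0.14 for Mars, 0.19 for Sars, 0.35 for Vars, 0.20 for Aldh18a1 and 0.08 for Got2. Without the level trend it was -0.10 for Farsa, -0.25 for Gars, -0.14 for Kars, -0.29 for Nars and -0.12 for Phgdh. Scaled to totals it was -0.02 for Cars, -0.05 for Farsa, -0.19 for Gars, -0.08 for Kars, -0.26 for Nars, -0.13 for Yars and -0.14 for Pycr1. By median ratios it was 0.01 for Hars. With the block it was 0.04 for Eprs, -0.10 for Nars and 0.02 for Chac1. Leaving out 1 library gave -0.20 to 0.22 for Hars, -0.15 to 0.03 for Mars, -0.05 to 0.26 for Pycr1, -0.13 to 0.14 for Got2, -0.20 to 0.10 for Eprs, -0.10 to 0.15 for Nars, -0.85 to 0.19 for Chac1, -0.25 to 0.07 for Wars, -0.04 to 0.28 for Gars, -0.21 to 0.07 for Sars and -0.36 to 0.12 for Aldh18a1. Little could be said of Cth and Bcat1, with at most 5 reads in any unfractionated library. The causes of these shifts were not tested.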
